A study of Mus musculus with 4 samples.

Results

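The regions described here are the 9916 entries of the authors' deposited table that sets Th2 cells of the lung against naive T helper cells of the mediastinal lymph node, out of 92372 entries in the study's 6 such tables. Every entry of that table was taken, and no threshold was added. Chromatin accessibility was measured by ATAC-seq, in which a transposase inserts sequencing adapters into open DNA, in a mouse model of allergic asthma in which animals are sensitized and then challenged with house dust mite (HDM). Both populations were taken at day 15, per the sample titles and the protocol. Th2 cells were sorted as CD3+ CD4+ CD44+ ST2+ CD30L+ cells from lung with airways, and naive cells as CD3+ CD4+ CD44lo CD62Lhi cells from the mediastinal lymph node. Tissue and cell state therefore cannot be told apart in this comparison. Each population was sorted as 3 biological replicates of 1000 cells. No source used here gives the mouse strain, sex or age.

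Each entry holds a position and 1 fold from the authors' differential analysis, with no replicate value, read count, error or p-value. Depth is therefore unknown, and the values below are a description with no test. The fold is read as log2 and runs naive minus Th2, so a negative fold marks a region more accessible in Th2 cells and a positive fold one more accessible in naive cells. All 11 regions of Il1rl1, which encodes ST2, were higher in Th2 cells. Cd44 had 8 regions higher in Th2 cells and 1 higher in naive cells. These genes follow from the sort and are no findings.

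A naive T helper cell circulates between blood and lymph nodes, which it enters with the help of CCR7, and is kept quiescent by transcription factors such as TCF-1 (Tcf7), LEF-1, BACH2 and FOXP1. On meeting allergen it can become a Th2 cell, which secretes IL-4, IL-5 and IL-13, drives eosinophil recruitment and mucus production in the allergic lung, and answers the epithelial alarmin IL-33 through ST2. The genes Il4, Il13 and Il5 lie beside one another around Rad50, whose body holds the Th2 locus control region, a set of enhancers. Accessible DNA marks promoters and enhancers, and a cell keeps open those of the genes it uses or is ready to use.

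Among the regions were some that lay over annotated transcription start sites of the genes discussed below. The sequences of 8 such start-site windows are given because a listed region covers all or part of each, at cytokine genes and Pparg for Th2 cells and at genes of naive T cells for naive cells. Each window runs from 250 bases before to 50 bases after a start site (RefSeq, GRCm38.p6), read on the gene's own strand. Capitals mark matches, on either strand, to the letters of 8 motifs that are spelled out after the sequences.
Il13, chr11:53634653-53634952, minus strand: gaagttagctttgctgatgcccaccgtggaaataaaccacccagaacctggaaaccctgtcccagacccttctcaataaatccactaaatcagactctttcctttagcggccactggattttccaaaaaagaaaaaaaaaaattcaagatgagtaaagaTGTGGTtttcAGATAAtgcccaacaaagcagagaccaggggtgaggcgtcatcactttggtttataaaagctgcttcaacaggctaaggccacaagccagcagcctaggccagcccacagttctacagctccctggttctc
Il4, an annotated start inside the gene, chr11:53617289-53617588, minus strand: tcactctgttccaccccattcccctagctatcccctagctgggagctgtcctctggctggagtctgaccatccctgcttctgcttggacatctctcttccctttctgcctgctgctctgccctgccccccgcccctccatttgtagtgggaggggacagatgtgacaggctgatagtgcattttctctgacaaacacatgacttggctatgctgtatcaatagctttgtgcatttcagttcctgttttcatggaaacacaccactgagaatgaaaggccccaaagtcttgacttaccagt
Pparg, chr6:115360894-115361193, plus strand: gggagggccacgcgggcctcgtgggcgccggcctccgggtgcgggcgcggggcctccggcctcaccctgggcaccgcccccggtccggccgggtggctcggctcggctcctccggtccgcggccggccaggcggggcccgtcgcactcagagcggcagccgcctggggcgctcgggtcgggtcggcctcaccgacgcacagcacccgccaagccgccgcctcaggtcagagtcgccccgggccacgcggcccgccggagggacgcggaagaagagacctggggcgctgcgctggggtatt
Il6, chr5:30012864-30013163, plus strand: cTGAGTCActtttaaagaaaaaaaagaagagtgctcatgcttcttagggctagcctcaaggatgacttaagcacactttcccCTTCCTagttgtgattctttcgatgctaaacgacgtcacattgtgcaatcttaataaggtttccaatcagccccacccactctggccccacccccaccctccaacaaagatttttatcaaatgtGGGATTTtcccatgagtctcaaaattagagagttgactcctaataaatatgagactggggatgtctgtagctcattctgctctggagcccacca
Lef1, an annotated start inside the gene, chr3:131156044-131156343, plus strand: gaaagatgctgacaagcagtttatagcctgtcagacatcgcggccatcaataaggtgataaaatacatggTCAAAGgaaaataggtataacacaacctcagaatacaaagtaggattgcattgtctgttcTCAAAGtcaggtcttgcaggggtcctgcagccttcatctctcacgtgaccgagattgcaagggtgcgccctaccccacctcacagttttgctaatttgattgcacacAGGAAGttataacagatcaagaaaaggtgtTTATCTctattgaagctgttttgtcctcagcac
Foxp1, chr6:99266466-99266765, minus strand: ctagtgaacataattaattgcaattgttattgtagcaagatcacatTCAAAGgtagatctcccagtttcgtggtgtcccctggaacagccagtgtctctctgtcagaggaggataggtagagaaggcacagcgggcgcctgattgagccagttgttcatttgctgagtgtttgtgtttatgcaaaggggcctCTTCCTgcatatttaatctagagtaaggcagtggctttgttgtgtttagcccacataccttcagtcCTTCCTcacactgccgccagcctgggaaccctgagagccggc
Lck, chr4:129558323-129558622, minus strand: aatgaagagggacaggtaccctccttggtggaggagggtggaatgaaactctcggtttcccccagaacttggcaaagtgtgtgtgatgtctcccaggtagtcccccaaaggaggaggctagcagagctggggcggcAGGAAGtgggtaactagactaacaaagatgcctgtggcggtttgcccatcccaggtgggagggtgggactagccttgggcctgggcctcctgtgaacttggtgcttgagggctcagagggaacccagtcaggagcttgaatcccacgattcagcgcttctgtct
Cd27, chr6:125236978-125237277, minus strand: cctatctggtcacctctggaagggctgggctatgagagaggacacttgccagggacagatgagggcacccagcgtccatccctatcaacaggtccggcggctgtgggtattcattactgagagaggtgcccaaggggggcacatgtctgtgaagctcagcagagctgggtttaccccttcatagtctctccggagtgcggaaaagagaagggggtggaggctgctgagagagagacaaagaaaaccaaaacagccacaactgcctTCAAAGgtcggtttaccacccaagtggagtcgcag

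The authors' deposited table gave the regions over these windows folds of -5.43 for Il13, -7.11 for Il4, -7.23 for Pparg and -7.14 for Il6, each higher in Th2 cells. The regions higher in naive cells had folds of 7.12 for Lef1, 8.15 for Foxp1, 8.73 for Lck and 8.05 for Cd27. The Il13, Lef1 and Foxp1 regions cover 174, 108 and 230 of the 300 bases of their windows, and the other 5 cover all of them. The Il13 window held the RUNX letters 91 bases and the GATA letters 81 bases before the start. The Il6 window held the AP-1 letters 249 bases, the ETS letters 168 bases and the NF-kB letters 44 bases before the start. The Lef1 window held the TCF and LEF letters at 180 and 120 bases before the start, and the Foxp1 window held them 204 bases before it, and these 3 matches lie outside the listed regions. The matches named for Il13 and Il6 lie inside them. The Il4 and Pparg windows shown held none of the 8. A match is a run of letters and no evidence of a bound factor.

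In all, regions higher in Th2 cells lay over 519 start-site windows and regions higher in naive cells over 179, of 32851 windows in the table, which holds none on chromosome 18. The letters preferred by TCF and LEF factors, CTTTGA, stood in 11.8% of the Th2 windows and 19.0% of the naive windows, against 16.0% of all windows. Those of GATA factors, AGATAA, stood in 6.17% of the Th2 windows and 11.2% of the naive windows, against 11.2% of all. The AP-1 letters, TGANTCA with N for any base, were found in 10.6% of the Th2 windows and 11.2% of the naive windows, against 7.81% of all. For ETS factors, AGGAAG was in 35.8% of the Th2 windows and 42.5% of the naive windows, against 35.4% of all. The RUNX letters TGTGGT were in 15.8% of the Th2 windows and 19.0% of the naive windows, against 16.8% of all. KLF factors prefer GGGTGTG, which was found in 11.0% of the Th2 windows and 7.82% of the naive windows, against 7.95% of all. NF-kB letters, GGGANTT, were in 15.2% of the Th2 windows and 14.0% of the naive windows, against 16.5% of all. The E box CAGCTG was in 17.0% of the Th2 windows and 20.1% of the naive windows, against 16.3% of all. Both strands were searched, and matches of different motifs may overlap. The median GC content was 60.3% in the Th2 windows and 53.7% in the naive windows, against 52.7% in all windows. GC content thus differed between the Th2 and naive windows, and its part in the motif shares was not tested.

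The list was split nearly evenly, with 5079 regions (51.2%) higher in Th2 cells and 4837 (48.8%) higher in naive cells. In the authors' deposited table the Th2 regions had a median fold of -5.59 (quartiles -6.49 and -4.84). The naive regions had a median of 5.28 (quartiles 4.60 and 6.33). The smallest folds listed were -3.47 on the Th2 side and 3.41 on the naive side, and nothing lay between them. A fold of size 8 or more was reached by 140 Th2 regions and by 237 naive regions. The regions higher in Th2 cells were the narrower, with a median width of 469 bp (quartiles 332 and 671.5) against 576 bp (quartiles 400 and 788) for those higher in naive cells.

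**Figure D1:**
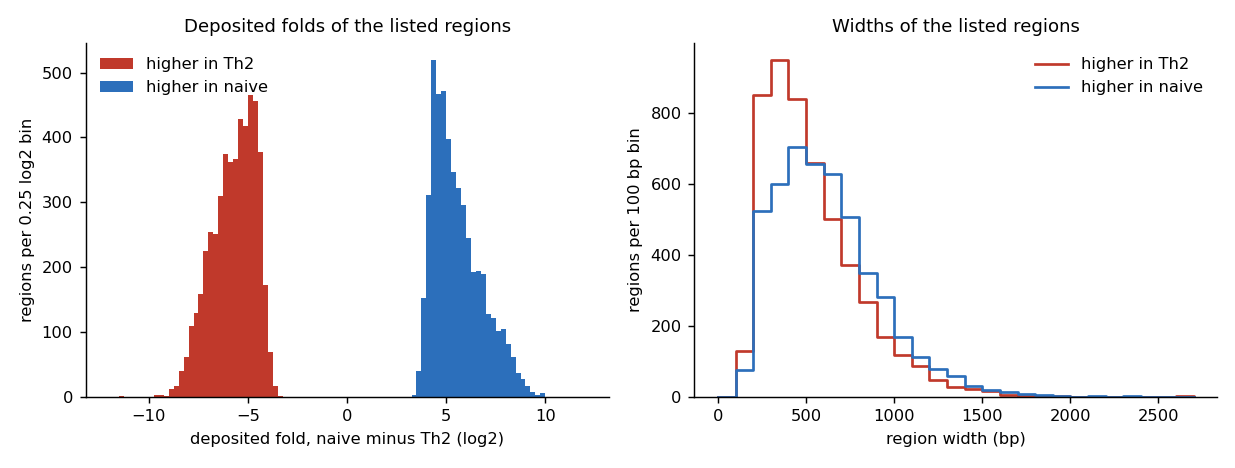
The left panel counts listed regions by their deposited fold (naive minus Th2, log2, bins of 0.25), and the right panel counts them by width (bp, bins of 100), with regions higher in Th2 cells in red and those higher in naive cells in blue. The folds form 2 separate groups with medians of -5.59 and 5.28, and the red width curve peaks at a lower width than the blue one.

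The folds say little about the population in which a region is closed. Many of the same regions are also listed against the study's other effector cells, the CD44+ ST2- memory cells of the lung, or against its regulatory T cells (Treg). At 3235 of the 3896 regions higher in Th2 cells that have an entry with identical coordinates in the other effector minus Th2 table, both deposited folds differed by only 0.15 to 0.20. That was 83.0% of them, and in the Treg minus Th2 table it was 603 of 1003 Th2 regions (60.1%). For regions higher in naive cells it was 2965 of 4835 (61.3%) in the naive minus other effector table. In the naive minus Treg table it was 606 of 1422 (42.6%), so most naive regions there differed by another amount. The tables share libraries and hold no level of either population, so these values describe the scale and are no second measurement. At the regions within that range the deposited fold was nearly the same with another population opposite. A fold is therefore not read here as a measured ratio of 2 levels.

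Regions higher in Th2 cells lay more often at start sites, and those higher in naive cells more often inside genes. Start-site windows were touched by 447 Th2 regions (8.80%) and 157 naive regions (3.25%). The bodies of protein-coding genes, start-site windows aside, held 2448 Th2 regions (48.2%) and 2755 naive regions (57.0%). Outside genes but within 100 kb of one lay 1844 Th2 regions (36.3%) and 1512 naive regions (31.3%). No gene lay within 100 kb of 340 Th2 regions (6.69%) and 413 naive regions (8.54%). The median distance from the region's midpoint to the nearest annotated start was 17380 bp for Th2 regions and 21659.5 bp for naive regions. At 5 to 20 kb from a start lay 31.3% of Th2 regions and 31.5% of naive regions, at 50 to 100 kb 11.4% and 14.3%, and beyond 100 kb 8.83% and 11.2%.

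Regions of like direction lay in runs. Of neighbouring regions less than 1 kb apart, 478 of 493 pairs (97.0%) had the same direction. The share was 90.4% at gaps of 1 to 5 kb, 72.9% at 10 to 50 kb, 62.3% at 50 to 100 kb and 52.2% beyond 500 kb. Regions next to each other can be pieces of 1 open stretch, so the shortest gaps are the least telling.

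**Figure D2:**
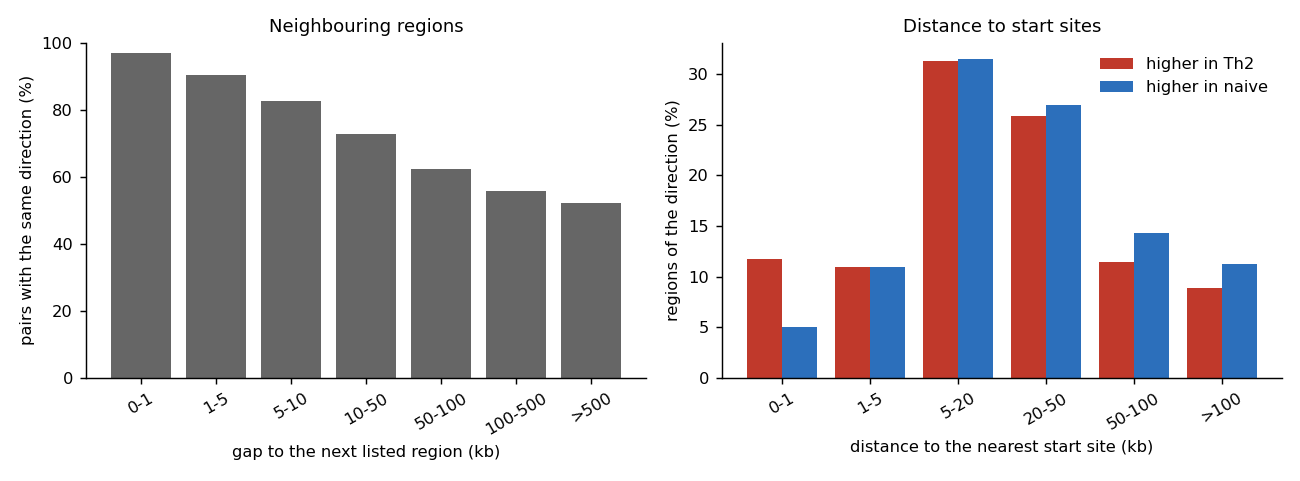
The left panel gives the percentage of neighbouring region pairs with the same direction by the gap between them (kb). The right panel gives the percentage of regions of each direction by distance from the nearest start site (kb), Th2 in red and naive in blue. Same-direction pairs go from 97.0% under 1 kb to 52.2% beyond 500 kb, and 11.7% of Th2 regions lie within 1 kb of a start against 5.04% of naive regions.

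A region whose midpoint fell in a protein-coding gene was given to that gene, and any other region to the closest gene up to 100 kb away, which names a neighbour and does not show a target. Of 21900 protein-coding genes, 2945 (13.4%) had at least 1 region higher in Th2 cells and 2551 (11.6%) at least 1 higher in naive cells. Of the 13906 genes with a region in any of the 6 tables, the shares were 21.2% for Th2 and 18.3% for naive. Both directions were present at 683 genes. Genes with a region were long, with a median length of 45.6 kb on the Th2 side and 52.4 kb on the naive side, against 17.1 kb over all genes, so long genes collect more regions. The shares of the gene lists below are read against 13.4% and 11.6%, without a test.

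The lists were grouped by role. A region higher in Th2 cells was found at 11 of 14 genes of the Th2 cytokine list (78.6%). That list also holds Rad50, Kif3a and Irf1, neighbours of the cytokine genes, each with a Th2 region. The share was 14 of 18 for Th2 receptor and effector genes (77.8%) and 9 of 15 for Th2 transcription factors (60.0%). The shares were 9 of 13 AP-1 and BATF genes (69.2%) and 12 of 18 tissue homing genes (66.7%). Lists of other roles reached 60.0% too. Glucose and growth genes had 68.8%, TGF-beta genes 66.7%, Notch genes 62.5%, and costimulatory and endothelial genes 60.0% each. The naive shares of these 5 lists were 37.5%, 55.6%, 37.5%, 53.3% and 40.0%. A region higher in naive cells was found at 13 of 14 transcription factors of naive and quiescent cells (92.9%) and at 10 of 13 lymph node homing and naive surface genes (76.9%). A naive region was found at 1 of 14 genes of the Th2 cytokine list. It was found at 2 of 18 Th2 receptor genes and 3 of 15 Th2 transcription factors. These counts stand against 11.6% of all genes and 18.3% of genes with a region in any table. A Th2 region was found at 5 of the 14 naive factors and 3 of the 13 naive surface genes, against 13.4% of all genes and 21.2% of genes with a region in any table.

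**Figure D3:**
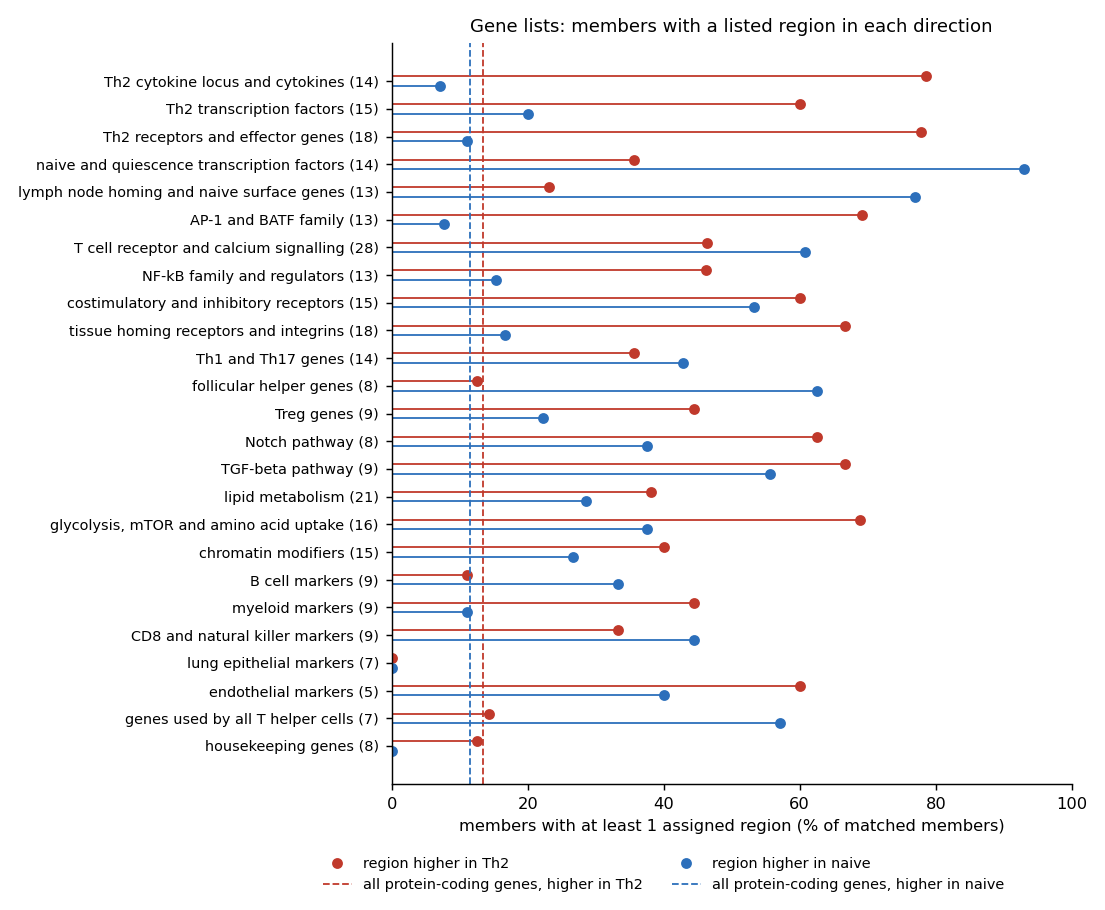
Each row is a gene list with its number of matched members, and the horizontal axis is the percentage of those members with at least 1 assigned region, red for regions higher in Th2 cells and blue for regions higher in naive cells. Dashed lines mark all protein-coding genes (13.4% for Th2, 11.6% for naive). The Th2 cytokine and receptor lists reach 78.6% and 77.8% in red, and the naive transcription factors reach 92.9% in blue.

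The Th2 cytokine locus on chromosome 11 was higher in Th2 cells at every listed region. Within 120 kb of the Il13 start there were 12 regions, and all 12 were higher in Th2 cells, with deposited folds between -7.29 and -4.32. Il13, the cytokine of airway mucus and hyperreactivity, had 5 regions. The 1 at chr11:53626744-53627138, in the space between Il4 and Il13, had a deposited fold of -7.16, and the start-site region at chr11:53634562-53634826 had -5.43. Against other populations the authors' deposited tables gave the region between the genes -6.99 for other effector minus Th2 and -4.81 for Treg minus Th2.

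Il4, which drives Th2 differentiation and IgE, had 1 region, at chr11:53617207-53617866 over a start inside the gene, with a deposited fold of -7.11 and of -6.94 in the other effector minus Th2 table. Rad50, a DNA repair gene, had 2 regions in its body, at chr11:53655102-53655400 with -6.55 and at chr11:53662740-53663661 with -6.77. Both lie in the part of Rad50 that faces Il13. Il5, the eosinophil growth factor, had 2 regions, and the 1 at chr11:53719396-53720232, 980 bp before its start, had a deposited fold of -6.56. The largest fold of the locus, -7.29, belonged to chr11:53605597-53606188, 1644 bp beyond the end of Kif3a on the side of Il4. That region was also listed for naive minus Treg, with -5.72.

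**Figure D4:**
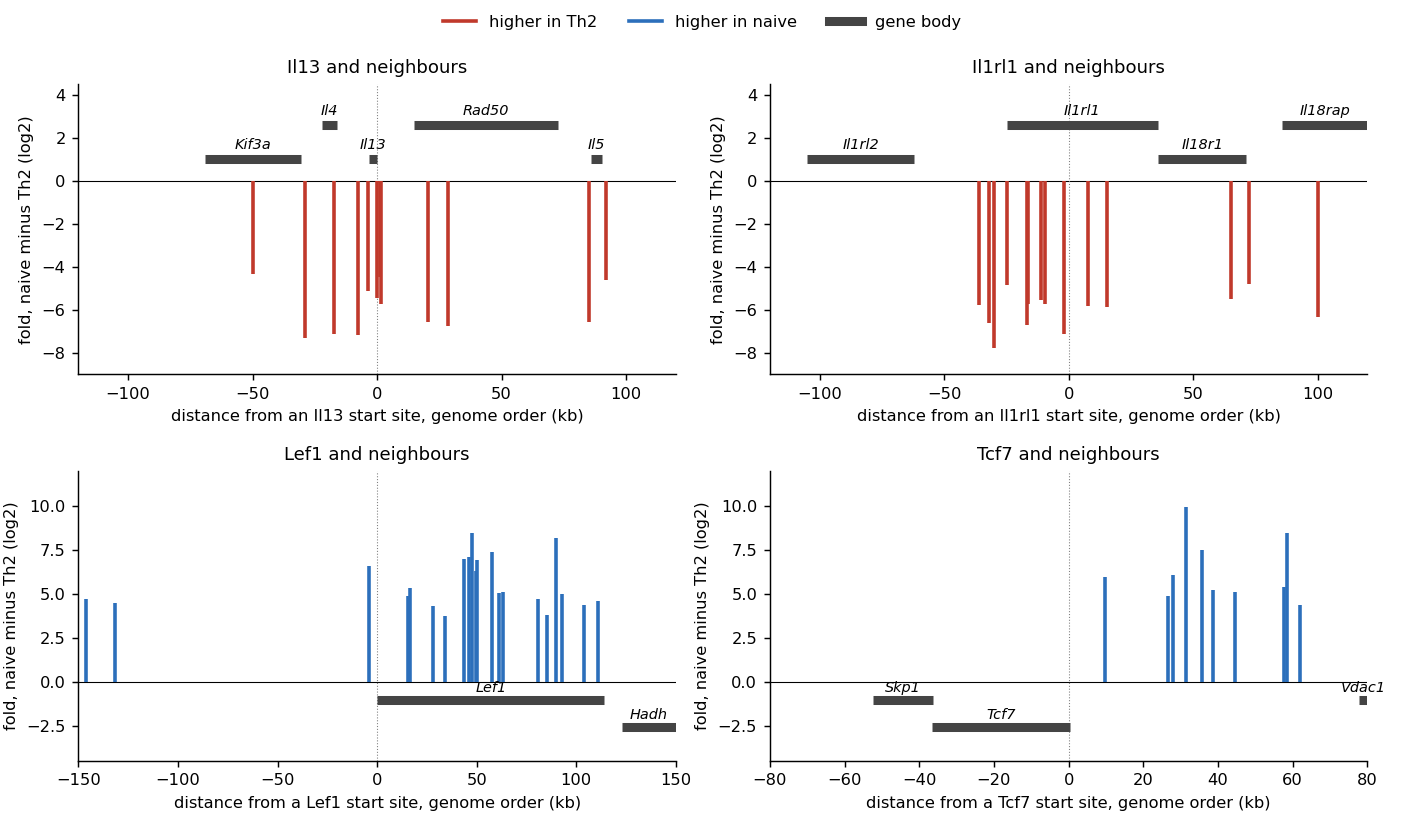
Each panel shows listed regions as vertical lines by their distance in genome order from a start site of the named gene (kb), with the deposited fold (naive minus Th2, log2) as height, and gene bodies as bars. All 12 regions around Il13 and all 14 around Il1rl1 point down (higher in Th2, red), while all 21 around Lef1 and all 10 around Tcf7 point up (higher in naive, blue).

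Other cytokine genes of the list were open in Th2 cells as well. Il10, the regulatory cytokine, had 7 regions and Il6 had 5, and all were higher in Th2 cells. The deposited folds furthest from 0 were -7.67 for Il10 and -7.14 for Il6. The Il10 region lay 19248 bp outside the gene, at chr1:131000372-131000823, and the authors' deposited tables gave it -7.44 for naive minus Treg and -7.50 for other effector minus Th2. Il9 and Areg, which encodes the repair factor amphiregulin, had 1 region each, with -5.40 and -6.00. Csf2 had 3 regions, with -5.07 at most. The exception in direction was Il3, whose single region was higher in naive cells with a fold of 4.53. Il24 and Il31 had no region.

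Receptor and effector genes of Th2 cells followed. Il1rl1 had 11 regions with deposited folds between -7.77 and -4.86, of which 8 lay inside the gene. The largest was chr1:40399429-40400091, 5104 bp outside the gene, and the tables gave it -7.49 for naive minus Treg and -7.60 for other effector minus Th2. The neighbouring receptor genes Il18r1 and Il18rap had 2 regions and 1 region, all higher in Th2 cells. Tnfrsf8, which encodes CD30, the receptor of the sorted ligand CD30L, had 2 regions with folds of -8.02 and -5.56. Igfbp7 had 6 regions up to -7.58, Plac8 had 5 up to -7.49 and Tnfsf11, which encodes RANKL, had 5 up to -7.16.

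Some known Th2 receptors were absent from the list. Ccr8, Il17rb and Ptgdr2, which encodes the prostaglandin receptor CRTH2, had no region here, although each had a region in at least 1 of the other 5 tables. Ccr4, a chemokine receptor of Th2 cells, and Crlf2, the receptor chain for TSLP, had 1 region each, with deposited folds of -5.51 and -7.13. Il4ra, the IL-4 receptor, had 1 region, and it was higher in naive cells with 5.42. An entry missing from the list does not show equal accessibility, since no source used here gives the authors' threshold.

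Among the Th2 transcription factors, Gata3, the lineage factor, had no region in either direction, and neither did Stat6, Stat5a, Irf4 or Gfi1. Pparg, the lipid-sensing nuclear receptor known from Th2 cells of the lung, had 8 regions, all higher in Th2 cells. Its folds in the authors' deposited table ran from -7.24 to -4.66. The region over its first start site, chr6:115360747-115361974, had -7.23, and chr6:115440207-115441072 inside the gene had -7.24. For naive minus Treg the deposited tables gave them -6.65 and -6.55, and for other effector minus Th2 they gave -7.06 and -7.07. Of the 8 Pparg regions, the entries at chr6:115432283-115433094 and chr6:115439687-115439941, with -4.66 and -4.88, had none in the naive minus Treg table.

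Rbpj, the DNA-binding factor of Notch signalling, had 11 regions, and all were higher in Th2 cells with deposited folds between -8.33 and -4.18. Of these, 9 lay before the gene and 2 inside it, and with a reach of 10 kb in place of 100 kb, 3 were assigned to Rbpj. The largest, chr5:53509304-53509975, lay 46140 bp outside the gene and had -8.16 in both the Treg minus Th2 and the other effector minus Th2 tables. The 100 kb window with the most Th2 regions of the genome, chr5:53400001-53500000, lay before Rbpj, with 10 regions higher in Th2 cells and 0 higher in naive cells. Of these 10, those starting at chr5:53471164, chr5:53480965 and chr5:53490471 were assigned to Rbpj. The others, the larger part, had no protein-coding gene within 100 kb.

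Bhlhe40, a transcription factor of cytokine-producing T cells, had 6 regions up to -7.94, and its relative Bhlhe41 had 1, at -7.79. Cebpb had 5 up to -8.12, and Runx2 had 6 up to -6.72 beside 1 naive region. Prdm1, which encodes BLIMP-1, had 3 regions higher in Th2 cells, up to -5.09, and 2 higher in naive cells, up to 5.23. Stat5b, which carries IL-2 and IL-7 signals, had 1 region, higher in naive cells at 4.37.

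Several transcription factors of naive cells had long runs of naive regions. Foxp1, a quiescence factor, had 25 regions higher in naive cells, Lef1 and Satb1 had 19 each, Bach2 had 18, Ikzf1 had 8, Foxo1 had 7 and Tcf7 had 6. Lef1, Satb1, Ikzf1, Foxo1 and Tcf7 had 0 regions higher in Th2 cells. The list's 114 naive regions had a median deposited fold of 5.38, close to the 5.28 of all naive regions, so these genes stood out by number and not by size. Foxp1, Bach2, Lef1 and Satb1 span 597, 348, 114 and 97.1 kb, against a median of 17.1 kb over all genes. The part of gene length in these counts was not tested. Of the 14 factors, Tcf3 alone had no region.

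The region of Tcf7 with the largest fold, chr11:52313875-52314897, lay 31372 bp before the start and had a deposited fold of 9.95. The naive minus Treg and naive minus other effector tables gave it 9.77 and 9.76. No region lay inside Tcf7 or over its start, and the 6 assigned to it stood between 9830 and 38609 bp before the start, so that a reach of 10 kb would leave 1. At Lef1, 18 of the 19 regions lay inside the gene, with deposited folds between 3.71 and 8.44. The largest, chr3:131157269-131158150, lay 1415 bp after the internal start printed above, and had 8.26 in both the naive minus Treg and the naive minus other effector tables. The Lef1 window chr3:131100001-131200000 held 15 naive regions and 0 Th2 regions, the most of any 100 kb window.

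At Satb1, a chromatin organizer, 11 of the 19 regions lay outside the gene, and a reach of 10 kb left 10 in all. The largest was chr17:51879015-51880707, 46571 bp before the start, with 9.37 in the authors' deposited table and 9.19 in the tables against Treg and other effector cells. Bach2, a repressor of effector genes, had 18 naive regions with folds between 3.82 and 8.27, the largest at chr4:32560268-32561211. Ikzf1, which encodes Ikaros, held the largest naive fold of the whole table, 9.97, at chr11:11725462-11726643 inside the gene. The same place was listed for Treg minus Th2 with 5.24, so there Treg cells also stood above Th2 cells.

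Foxp1 held regions of both directions. Its 3 Th2 regions lay at chr6:98977923-98978219, chr6:98992524-98993571 and chr6:99035787-99035964, with deposited folds of -7.02, -6.76 and -4.90. Of the 25 naive regions, 2 lay before or among these, and 23 lay beyond them, from chr6:99057819 on towards the far start of the gene. The naive region over a start site, chr6:99265694-99266695, had a fold of 8.15. Bach2 likewise had 1 Th2 region, with -5.48, among its naive regions. Zeb1, Ets1 and Id3 carried both directions, with 2, 1 and 1 Th2 regions and 1, 5 and 1 naive regions.

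**Figure D5:**
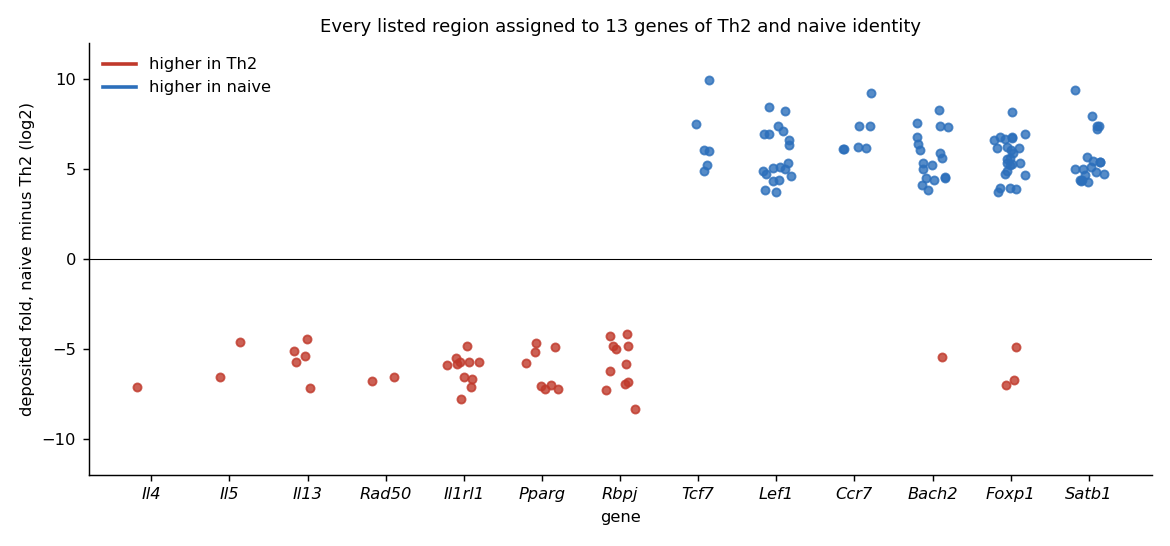
Every listed region assigned to 13 genes is a point, with the gene on the horizontal axis and the deposited fold (naive minus Th2, log2) on the vertical axis, red where higher in Th2 cells and blue where higher in naive cells. Th2 genes on the left have points below 0 and naive genes on the right have points above 0, except for 1 Bach2 region and 3 Foxp1 regions below 0.

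Surface genes of lymph node homing were also on the naive side. Ccr7, the chemokine receptor for entry into the node, had 7 regions higher in naive cells, with deposited folds between 6.09 and 9.19, and 0 higher in Th2 cells. The largest, chr11:99170611-99171427, lay 15942 bp outside the gene. S1pr1, the receptor for leaving the node, had 3 naive regions up to 7.62 and 1 Th2 region at -6.66. Il6st, the shared IL-6 receptor chain, had 6 naive regions up to 9.24. Cd27, a costimulatory receptor lost by effector cells, had its start-site region at 8.05 in the naive direction and 2 regions higher in Th2 cells, the larger at chr6:125256648-125256911 with -5.96. Il7r, Il6ra and Igf1r had no region.

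Tgfbr3, the betaglycan coreceptor, was second only to Foxp1 in naive regions, with 24 higher in naive cells and 1 higher in Th2 cells. Its naive folds in the authors' deposited table ran from 4.11 to 8.03, and 18 of its 25 regions lay inside the gene. Dapl1, Nsg2 and Actn1 had 5, 6 and 4 naive regions with 0 Th2 regions, and their largest folds were 7.55, 8.74 and 7.38.

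Genes of T cell receptor signalling carried both directions. Naive cells had the higher accessibility at Lck, the first kinase of the receptor, with 1 start-site region at 8.73, at Cd3e and Cd247, which encode receptor chains, with 3 regions each up to 6.05 and 6.65, and at Plcg1 with 2 regions up to 7.83. Prkcq, the protein kinase of the T cell synapse, had 9 naive regions between 4.19 and 8.48 and 0 Th2 regions. Th2 cells had the higher accessibility at Nfatc2, a calcium-driven factor, with 2 regions up to -7.08, and at Rcan1, a calcineurin regulator, with 2 up to -7.37. Itpr1, the calcium channel of the endoplasmic reticulum, had 11 Th2 regions between -8.92 and -5.68 and 1 naive region at 5.41. Other calcium genes of the list leaned the other way. Itpr2 and Stim2 had 4 naive regions each, beside 2 and 1 Th2 regions. Orai1, Camk4 and Nfatc3 had 1 naive region each and no Th2 region, and Nfatc1 and Stim1 carried both directions. Zap70 and Themis stood apart from the other proximal genes, each with 1 Th2 region, at -5.16 and -6.11. Over the list, 13 of 28 genes had a Th2 region and 17 of 28 a naive region.

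AP-1 factors, which act with NFAT in activated T cells, had a Th2 region at 9 of 13 genes and a naive region at 1 of 13. Atf3 had 4 regions, with the start-site region chr1:191182355-191184006 at -8.82. Fosl2 and Fosb reached -7.68 each, Batf, which opens chromatin in effector cells, had 3 regions up to -7.41, and Nfe2l2, the oxidative stress factor, had 4 up to -7.96. Bach1 alone carried naive regions, 3 of them beside 2 Th2 regions. Jdp2, an AP-1 partner outside the list, had 10 Th2 regions and 0 naive regions. Among NF-kB genes, Nfkb1 had 8 Th2 regions up to -7.18 and Tnfaip3, an inhibitor of the pathway, had 6 up to -7.89. Nfkb1 also had 1 naive region at 3.84 and Nfkbia 1 at 4.38.

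Costimulatory and inhibitory receptors showed both directions, with a Th2 region at 9 of 15 genes and a naive region at 8 of 15. The inhibitory receptors Pdcd1 (PD-1) and Havcr2 (TIM-3) had 3 and 4 Th2 regions, with deposited folds up to -7.39 and -8.00, and 0 naive regions. Klrg1, a marker of terminal effector cells, had 7 Th2 regions up to -6.34, and that region had -8.58 in the naive minus Treg table. Ctla4 had 3 regions in each direction, Cd28 had 1 Th2 region and 3 naive regions, and Icos, Cd5, Cd6 and Cd96 had naive regions and no Th2 region.

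Receptors and integrins of tissue entry leaned to Th2 cells. Ccr1 had 4 regions up to -7.81, the largest over its start site, and Itgav, an integrin chain, had 5 up to -6.19. Itgae, which encodes the tissue-residence integrin CD103, had 2 up to -6.24. The list's 33 Th2 regions had a median deposited fold of -5.11, nearer to 0 than the -5.59 of all Th2 regions. Cxcr4 and Itga4 had 2 regions in each direction, and Cxcr3, Cxcr6 and Ccr3 had none.

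Glucose and growth genes were the metabolic list with the larger Th2 share, with 11 of 16 genes against 6 of 16 with a naive region. Slc2a1, the glucose transporter GLUT1, had 1 Th2 region at -8.36. Pfkfb3, an activator of glycolysis, had 4 up to -8.26 and 1 naive region at 6.92. Hk2, a hexokinase, had 4 up to -7.55, and Myc had 5 up to -7.40 beside 1 naive region at 4.35. In lipid metabolism 8 of 21 genes had a Th2 region and 6 of 21 a naive region. Plin2, which coats lipid droplets, had 4 Th2 regions up to -8.94, and Rxra, the partner of PPARG, had 3 up to -7.11. The synthesis genes Fasn, Scd2 and Srebf1 had 1 naive region each, between 4.04 and 4.95.

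Pathways of TGF-beta and Notch were divided by gene. Tgfb1, the ligand, had 1 Th2 region at -8.33, while its receptor gene Tgfbr2 had 6 naive regions up to 7.33 and 1 Th2 region at -6.87. Smad7, the inhibitor, had 4 naive regions up to 7.63, and Smad3 had 3 Th2 regions and 1 naive region. In the Notch list Notch2 and Notch3 had 1 Th2 region each, at -6.67 and -5.76, and the coactivator Maml2 had 6 naive regions up to 5.91. Among chromatin modifiers the TET demethylases split, with 4 Th2 regions up to -8.52 at Tet2, 3 naive regions up to 8.06 at Tet1 and 5 naive regions up to 6.85 at Tet3.

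Genes of other T helper fates showed both directions. Rora had 6 Th2 regions up to -6.67 and 1 naive region, and Tbx21, Ifng and Il22 had 1 Th2 region each, at -5.33, -4.23 and -5.22. Il12rb2, the IL-12 receptor chain, had 4 naive regions up to 7.78, Eomes had 3 up to 7.27 and Il23r had 3 up to 4.39. Genes of follicular helper cells were on the naive side, with a naive region at 5 of 8 and a Th2 region at 1 of 8. Cxcr5, their follicle-homing receptor, had a single region at 9.14, 6862 bp outside the gene. Foxp3, the Treg factor, had 1 naive region at 4.76, while Nrp1 had 3 Th2 regions up to -6.94 and Entpd1, which encodes CD39, had 1 at -7.43.

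Outside the lists, the genes with most Th2 regions were Atxn1 with 12, Myo1e with 11, Jdp2, Etv6 and Eed with 10 each, and Niban1, Runx1 and Sik3 with 9 each. All 10 Eed regions lay between 17736 and 61567 bp before its start, with deposited folds between -8.47 and -4.37. Runx1, a factor of T cell development and function, had Th2 regions between -7.85 and -4.76 and 1 naive region at 4.75. On the naive side Cox10 had 15, Ubac2, Trio, Arid1b and Chl1 had 11 each, and Btg1, an antiproliferative gene, and Adamts20 had 10 each. The Btg1 regions all lay outside the gene, and 1 further region there was higher in Th2 cells at -3.90.

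Within 1 gene, both directions could be mixed. Of 330 genes with at least 5 regions, 63 had Th2 regions alone, 79 naive regions alone and 188 both, and 112 genes had at least 2 regions of each direction. Inpp4b, a phosphoinositide phosphatase, had 6 of each, with Th2 regions up to -6.34 and naive regions up to 8.24. Bcl2, the survival gene, had 2 Th2 regions and 7 naive regions. Its Th2 region chr1:106627163-106627580, at -7.82, lay between naive regions at chr1:106606892-106607403, with 7.42, and chr1:106687583-106688575, with 7.35. In the authors' deposited table this gene held open sites of either population inside 1 transcription unit.

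The largest Th2 fold, -11.49, stood on the unplaced sequence JH584304, where all 8 listed regions were higher in Th2 cells, with -4.85 as the smallest. No gene of the table lies there, and how uniquely reads map to that sequence was not tested. Among placed regions the largest Th2 folds were -9.74 inside Tmbim1, -9.63 inside Rab20 and -9.40 beside Slc15a3, a lysosomal transporter. On the naive side, behind Ikzf1 and Tcf7, came 9.86 in Tha1, 9.83 beside Trim33 and 9.75 over the start of Rasgrp2, which encodes an activator of Rap1 in T cells. The tables gave the Tha1 region 7.12 for Treg minus Th2, and the Rab20 region -7.88 for naive minus Treg.

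MicroRNA genes also lay near listed regions. Of 1005 hairpins, 27 had a region within 2 kb, 14 of them near a Th2 region and 13 near a naive region. The share of all genes within 2 kb of a region was not counted, so these counts are not read as many or few. Among the 14, Mir23a, Mir27a, Mir24-2 and Mir3074-2 were counted through the same region. The cluster of Mir23a, Mir27a and Mir24-2 was chosen after its value was seen. A region at chr8:84207849-84208058, 459 bp before the Mir23a hairpin, had a deposited fold of -6.92. The mature 3′ products (RefSeq, GRCm38.p6) are given below with the seed, bases 2 to 8, in capitals.
mmu-miR-23a-3p: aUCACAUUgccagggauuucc
mmu-miR-27a-3p: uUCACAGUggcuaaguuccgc
mmu-miR-24-3p: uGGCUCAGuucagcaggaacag

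The seeds of all 3 differ. The files hold no RNA, so whether the cluster was transcribed was not analysed here.

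Markers of cells that a sort could carry along were looked at in the same way. Of 9 myeloid markers, 4 had a Th2 region (44.4%, against 13.4% of all genes) and 1 a naive region. With folds at or above the median size of 5.45 alone, 1 of the 9 had a Th2 region. The 4 were Cebpa, with its start-site region at -8.36, Itgam, Csf1r and Adgre1, while Lyz2, Cd68, Mrc1, Siglecf and Spi1 had none. Of 9 B cell markers, 3 had a naive region, namely Ebf1, Pax5 and Blk, with folds between 4.15 and 4.85, and Cd79a, Cd79b, Ms4a1 and Cr2 had none. Of 9 markers of CD8 and natural killer cells, 3 had a Th2 region and 4 a naive region, the largest being 7.72 at Klrk1, and Cd8a had none. All 7 lung epithelial markers had no region. Of 5 endothelial markers, 3 had a Th2 region and 2 a naive region. The part of other cells in any result was not tested, and each population's level of these genes is not in the table.

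Genes in use in every T helper cell were not neutral. Cd2, Thy1 and Ptprc, which encode surface proteins of all T cells, had 4 naive regions each, up to 7.84, 7.26 and 6.88, and Ptprc had 1 Th2 region at -4.85. Cd4 had no region in any of the 6 tables. Of 8 housekeeping genes, Actb had 1 Th2 region at -5.98, 4931 bp outside the gene, and Gapdh, Tbp, B2m, Ppia, Hprt and Pgk1 had none.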

How the data were processed

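ATAC-seq libraries of 4 sorted T helper populations were analysed by the authors with DiffBind. The submitters' processing notes name that tool without a version, and name build mm9. The unplaced sequences named in the tables belong to GRCm38, and 8.07% of region midpoints lay within 1 kb of a GRCm38.p6 gene end, against 3.25% to 4.87% after shifts of 10 to 1000 kb, so coordinates are given as GRCm38 and 1-based. No source used here gives the aligner, peak caller, read shift, normalization or threshold. The deposited value is 1 log2 fold per region, read as log2 because the authors' tool reports that scale, per the submitters' processing notes. Its sign was read from the genes of the sorting markers. Titles give day 15 for both populations, while the description of naive cells carries another day and their source label names lung and airways. The titles and the protocol, per the labels, were followed.

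Regions were assigned to genes with pandas 2.3.3 and numpy 2.4.6 on Python 3.11.15 by position alone, and figures were drawn with matplotlib 3.10.9. The positional code was tested on simulated data. Of 313 list genes, 312 matched the gene table. The regions, gene lists and named genes were chosen with earlier results of these data known. Named are 15 genes of Th2 and naive identity, per direction the 15 genes with most regions and the 12 regions of largest fold, per list and direction up to 4 members with most regions, 10 genes with both directions and the start-site windows of list genes. Other list members in the text were chosen after their values were seen. Some list genes are not reported here by name. No test was possible, since there are no replicate values.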

Additional observations from a re-analysis of the deposited data

How the results depend on the processing

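No paired analysis was possible because the deposited tables hold 1 value per region and no replicate columns. Leaving out a replicate was impossible for the same reason. Keeping only folds at or above the median size of 5.45 left 2786 regions higher in Th2 cells and 2187 higher in naive cells, against 5079 and 4837. The share of regions near a gene end was 10.6% for Th2 and 5.40% for naive regions at 1 kb. It was 7.70% and 3.37% at 0.5 kb, 22.8% and 18.1% at 5 kb, and 8.80% and 3.25% by overlap with start-site windows, so the Th2 share was the higher in each. With folds at or above the median size the naive share was 6.36%, against 11.0% for Th2. Counting only regions inside genes left a Th2 region at 6 genes of the Th2 cytokine list, against 11. It left 4 of the Th2 transcription factors, against 9. In windows of 200 kb the most Th2 regions in 1 window were 17, against 10 in windows of 100 kb. The other 26 of 38 alternatives for these results left a count within 1.5 times, a median fold within 1 SD of the list's regions or a share within its exact 95% binomial interval. Among the remaining gene lists, 54 of 135 alternative counts moved by more than 1.5 times or to 0, and keeping only folds at or above the median size left a Th2 region at 6 of 18 tissue homing genes and at 1 of 9 myeloid markers, against 12 and 4. Of 30 alternative counts for named genes, 4 moved, all to fewer regions with a reach of 10 kb, at Rbpj, Tcf7, Satb1 and the Th2 direction of Bach2. Requiring 100 bases of overlap with a start-site window kept all 16 motif shares within their intervals. No direction can turn under these alternatives, since each fold keeps its sign. How depth limits the values is unknown, since no read count is given.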

Other observations

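The balance of directions differed between chromosomes. Chromosome 19 held 183 regions higher in Th2 cells and 107 higher in naive cells (63.1% Th2), and chromosome 2 held 492 and 351 (58.4% Th2). Chromosome 15 held 180 Th2 regions and 263 naive regions (40.6% Th2), and chromosome 3 held 230 and 319 (41.9% Th2). These shares have no replicate check.

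Of 5642 windows of 100 kb with a listed region, 1035 held at least 3. All regions were higher in Th2 cells in 316 of these and higher in naive cells in 329, and 390 held both directions. On the Th2 side, the window of Cd44 and Pdhx and the window inside Itpr1 held 9 regions each, with 0 naive regions. On the naive side, the window of Ccr7 and Tns4 and the window beside Adamts20 held 9 each, with 0 Th2 regions.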
